A study of Homo sapiens with 24 samples.

Results

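The interaction between the adenovirus protein E1A and oxaliplatin was measured in parental HCT116 cells, as the departure of the combined treatment from the sum of the 2 single effects on the log2 scale. It rests on 12 of the 24 RNA-seq samples of the series, in 4 groups of 3, which were found by the cell line and treatment in the sample labels. HCT116 is a human colorectal carcinoma line, and every group, the untreated one included, carried a doxycycline-inducible E1A transgene (HCT116 TetOn-E1A). The groups were untreated cells, E1A cells given 0.5 µg/mL doxycycline, oxaliplatin cells given 25 µM oxaliplatin for 24 h, and E1A + oxaliplatin cells that received the doxycycline 3 h before the oxaliplatin. How long the E1A cells were kept in doxycycline in total is not given here. No group of these 12 received doxycycline without the transgene, so doxycycline and E1A cannot be told apart. The sources used here do not say whether the transgenic cells were 1 clone, and the 3 samples of a group are called biological replicates in the labels, so p-values measure the spread between these samples. The other 12 samples were HCT116 oxpl-R, the oxaliplatin-resistant derivative with the same transgene, in the same 4 treatment groups of 3. They were used to choose gene sets and to compare the interaction between the lines.

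E1A is the first protein made by an infecting adenovirus. It binds the retinoblastoma proteins, which frees E2F factors to drive S-phase genes, and it binds the acetyltransferases p300 and CBP, which many stress-induced promoters use. Oxaliplatin is a platinum drug that crosslinks DNA and blocks ribosomal RNA synthesis, and in cells with functional p53 it raises p53 target genes such as CDKN1A, the inhibitor of cyclin-dependent kinases known as p21. An interaction of 0 means that the fold changes of the single treatments multiply. A negative interaction means that the level in the combination was lower than that product, and a positive one that it was higher.

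Total counts ranged from 26012781 to 31432410 per sample in a gene table that runs alphabetically to SETP6. Levels are given as CPM (counts scaled to the TMM-normalized library size), so they compare samples. They are not scaled to transcript length, so levels of different genes, as among the markers below, compare only roughly. Several markers of colorectal epithelium were high, with a median over the 12 samples of 4296 CPM for KRT8 and 324 CPM for EPCAM. However, CDX1, LGR5 and ASCL2 had a median of 0 CPM, CDH17 of 0.0479, MUC13 of 0.499 and KRT20 of 0.889 CPM. The 17 epithelial markers summed to 6662 to 7566 CPM in untreated, 6344 to 6654 in E1A, 12160 to 13881 in oxaliplatin and 9357 to 12088 in E1A + oxaliplatin samples. The 15 markers of other cell types summed to 23.3 to 28.1, 31.4 to 37.7, 33.9 to 37.5 and 36.6 to 49.9 CPM in the same order, most of it COL1A1 with a median of 25.2 CPM, while the leukocyte marker PTPRC did not pass 0.0748 CPM. The part of these differences in the results was not tested.

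A pair of libraries stood apart from the other samples of their groups. On the second principal component, which held 22.6% of the variance after 52.9% on the first, oxaliplatin replicate 3 scored 15.8 and E1A + oxaliplatin replicate 1 scored 16.7, while the other 10 libraries lay between −8.88 and 4.07. The difference in mean log2 level between long and short transcripts was 0.15 in oxaliplatin replicate 3 against −0.25 and −0.24 in the other oxaliplatin libraries. It was 0.09 in E1A + oxaliplatin replicate 1 against −0.21 and −0.16 in the other combination libraries. The same difference between GC-rich and GC-poor transcripts lay between −0.87 and −0.41 in untreated, −0.33 and −0.11 in E1A and 0.26 and 0.93 in oxaliplatin libraries, and it was 1.00 in E1A + oxaliplatin replicate 1 against 0.19 and −0.16 in the other 2. Results are given for all 12 libraries and, where they rest on this pair, without it.

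**Figure D1:**
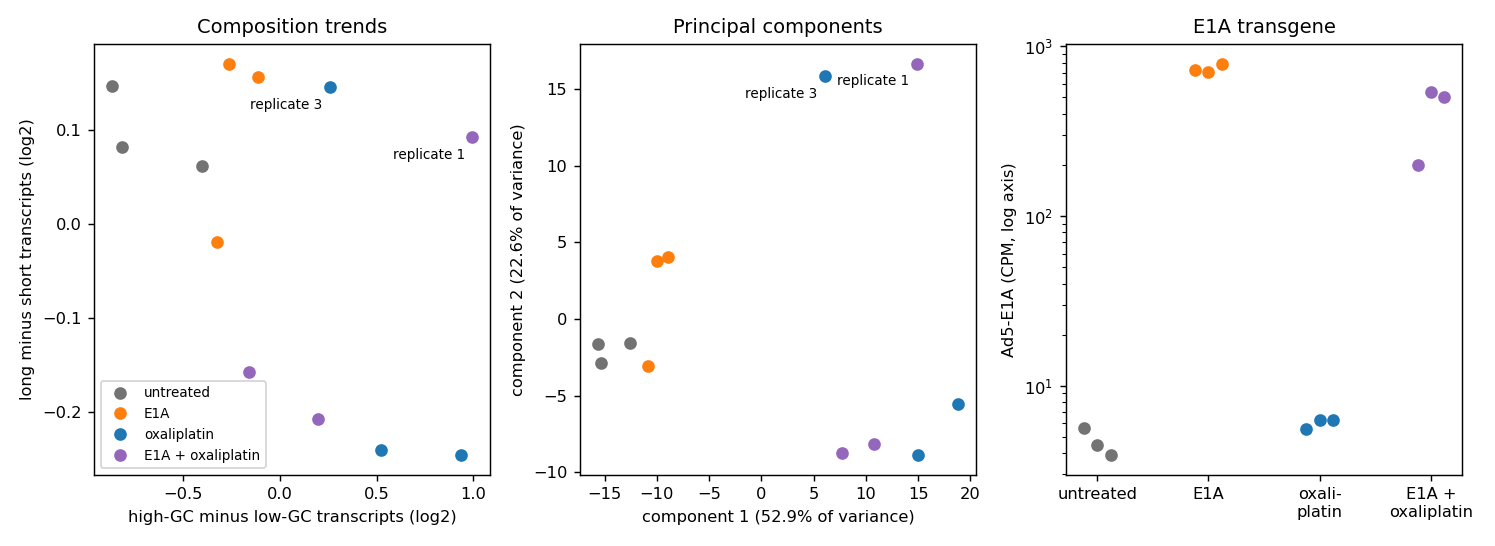
Each point is 1 of the 12 HCT116 libraries, colored by group. The left panel plots the log2 difference between long and short transcripts against that between GC-rich and GC-poor transcripts, the middle panel the first 2 principal components, and the right panel the CPM of the E1A transgene on a log axis. Oxaliplatin replicate 3 and E1A + oxaliplatin replicate 1 lie above 15 on component 2, and the transgene is lowest among the doxycycline-treated libraries in E1A + oxaliplatin replicate 1.

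The E1A transgene itself (Ad5-E1A) followed the labels in all 12 libraries. It was at 5.65, 4.48 and 3.90 CPM in untreated and 5.53, 6.29 and 6.30 CPM in oxaliplatin samples, at 729, 703 and 792 CPM in E1A samples, and at 201, 542 and 500 CPM in E1A + oxaliplatin samples. The transgene was thus high in every doxycycline-treated library, but each of the 3 combination values lay below each of the 3 E1A values. Its mean was 741 ± 45.9 CPM (SD, n = 3) with E1A alone and 414 ± 186 CPM (SD, n = 3) in the combination, a log2 difference of −0.84 (adjusted p = 0.043, edgeR quasi-likelihood test). The interaction for the transgene was −1.21 ± 0.37 (SE) with an adjusted p of 0.96, and −0.87 without the 2 libraries. In bulk RNA, fewer E1A-expressing cells and less E1A RNA per cell cannot be told apart.

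No gene passed the test of the interaction in HCT116 cells. Of 17632 genes tested with edgeR's quasi-likelihood test, 0 (0%) had a Benjamini-Hochberg adjusted p below 0.05, and the smallest adjusted p was 0.153. At an unadjusted p below 0.05 there were 826 genes (4.68%), of which 486 (2.76%) had a positive and 340 (1.93%) a negative interaction. DESeq2 called 14 of the 14875 genes to which it gave an adjusted p (0.0941%), 10 negative and 4 positive. Among the genes from SETP7 to TSC22D3, which were taken from a second deposited table, 0 of 3099 (0%) were called, 161 had an unadjusted p below 0.05, and the smallest adjusted p was 0.603.

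The spread between the samples limits how small an interaction could be called. Among the 9319 genes with at least 50 normalized counts on average over the 12 libraries, the median SE of the interaction was 0.28. The 95% interval of the interaction reached a median of 0.59 to either side. The interval lay within ±1 for 6093 of these genes (65.4%) and within ±2 for 8999 (96.6%). An estimate beyond ±1 occurred in 277 of them (2.97%). Over all genes tested, 9516 (54.0%) had a negative estimate, with a median of −0.04.

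The single effects had very different sizes. E1A alone changed 63 genes (0.357%), 59 higher and 4 lower. Oxaliplatin alone changed 3878 genes (22%), 2253 higher and 1625 lower. Added to oxaliplatin, E1A raised 16 genes (0.0907%) and lowered 0 by edgeR, where 645 had an unadjusted p below 0.05, 250 of them lower. Added to E1A, oxaliplatin changed 1930 genes (10.9%), 1156 higher and 774 lower. The difference between 63 and 16 genes is not by itself a test of the interaction.

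The 15 host genes that E1A raised in the presence of oxaliplatin, named after their values were seen, include the AP-1 subunits JUN and JUNB, the immediate early genes EGR1, EGR3, ARC, IER2 and GADD45B, the inducible HSP70 chaperones HSPA1A and HSPA1B, the acetyl-lysine reader BRD2, and the Notch targets HEY1 and NRARP. The others were the inositol kinase gene ITPKC, LINC00659 and the readthrough locus ATP6V1G2-DDX39B.

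The negative calls of DESeq2 included JUNB, ARC, DUSP1, CCN2 and PADI3, which E1A and oxaliplatin each raised when given alone (edgeR), and CDKN1A, which oxaliplatin raised. ARC and PADI3 were chosen after their values were seen. The 160 bases upstream of the RefSeq start (GRCh38.p14) are shown for 4 of these, since their values are given in every sample below, and for EGR1, which E1A raised and oxaliplatin lowered. The promoters are JUNB (chr19:12791326-12791485, plus strand), DUSP1 (chr5:172771196-172771355, minus strand), CCN2 (chr6:131951373-131951532, minus strand), CDKN1A (chr6:36678554-36678713, plus strand) and EGR1 (chr5:138465319-138465478, plus strand). Each is written 5′ to 3′ on its own strand and ends at the base before the start. Capitals mark matches on either strand to the TATA box TATAAA, the core TGACG of the cAMP response element, the TEAD element GGAATG, the CCAAT box CCAAT, the GC box GGGCGG and the CArG box, to which serum response factor binds, and matches may overlap.
JUNB: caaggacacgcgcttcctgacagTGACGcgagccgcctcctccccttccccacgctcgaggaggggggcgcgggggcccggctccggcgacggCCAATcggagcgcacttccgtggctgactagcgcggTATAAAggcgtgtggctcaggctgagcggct
DUSP1: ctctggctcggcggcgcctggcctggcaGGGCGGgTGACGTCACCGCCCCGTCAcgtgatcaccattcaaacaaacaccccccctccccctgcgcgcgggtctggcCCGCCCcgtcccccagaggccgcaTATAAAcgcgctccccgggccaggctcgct
CCN2: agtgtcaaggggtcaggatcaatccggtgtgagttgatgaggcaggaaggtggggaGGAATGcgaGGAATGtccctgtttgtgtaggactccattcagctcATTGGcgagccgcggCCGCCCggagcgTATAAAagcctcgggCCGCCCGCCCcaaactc
CDKN1A: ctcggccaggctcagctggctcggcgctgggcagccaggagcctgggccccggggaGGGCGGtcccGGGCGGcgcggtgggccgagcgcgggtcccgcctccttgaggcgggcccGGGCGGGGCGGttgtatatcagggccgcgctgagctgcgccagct
EGR1: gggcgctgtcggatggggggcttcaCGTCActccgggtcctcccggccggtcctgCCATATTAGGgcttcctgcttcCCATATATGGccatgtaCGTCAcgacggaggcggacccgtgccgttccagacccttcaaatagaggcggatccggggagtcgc

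TATAAA was found upstream of JUNB, DUSP1 and CCN2 in these windows, GGAATG upstream of CCN2 only, and CArG boxes upstream of EGR1 only. A match is a description of these letters and not a measured binding site. In the 250 bases before the start, TATAAA was in 10.7% of all 35093 RefSeq promoters, TGACG in 21.2%, GGAATG in 11.9%, CCAAT in 32%, GGGCGG in 42.6% and the CArG box in 1.16%.

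JUNB, whose product pairs with FOS proteins in AP-1, was at 176, 167 and 189 CPM in untreated cells, 860, 920 and 857 with E1A, 437, 384 and 392 with oxaliplatin and 1096, 1167 and 1088 with both. The 4 groups did not overlap, and the combination was the highest. E1A raised JUNB by 2.31 ± 0.13 and oxaliplatin by 1.19 ± 0.13 on the log2 scale (SE, edgeR adjusted p = 3.4e-08 and 1.5e-05). Their product would be 2005 CPM, and the interaction was −0.84 ± 0.18 (adjusted p = 0.52). The sum of the 2 increases in CPM would be 1106 CPM, and the measured mean of 1117 ± 43.4 CPM (SD, n = 3) departed from it by 10.5 ± 37.0 CPM (SE). On the linear scale the increases of JUNB thus added up within their error.

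ARC, an immediate early gene, had the same form. Its level was 22.5, 21 and 23.9 CPM in untreated cells, 98.4, 96.9 and 94.2 with E1A, 72.4, 70.0 and 81.9 with oxaliplatin and 185, 152 and 146 with both. Again no group overlapped another. The product of the fold changes would be 321 CPM and the sum of the increases 149 CPM, against a mean of 161 ± 21 CPM (SD, n = 3). The interaction was −0.99 ± 0.20 (SE, edgeR adjusted p = 0.28), and the departure on the linear scale was 12.3 ± 12.7 CPM (SE).

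DUSP1, a phosphatase that inactivates MAP kinases, stayed below both expectations. It was at 13.4, 14.1 and 16.4 CPM in untreated cells, 36.7, 36.8 and 33.5 with E1A, 27.8, 26.8 and 22.6 with oxaliplatin and 34.5, 35.5 and 31.8 with both. The combination overlapped with E1A alone. The product would be 62.7 CPM and the sum 46.8 CPM, and the departure from the sum was −12.8 ± 2.42 CPM (SE). The interaction was −0.89 ± 0.23 (SE, edgeR adjusted p = 0.96).

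CCN2, a secreted matricellular protein and a target of YAP and TEAD, was low throughout. It was at 1.65, 1.81 and 2.39 CPM in untreated cells, 8.78, 9.76 and 7.63 with E1A, 6.44, 8.29 and 5.56 with oxaliplatin and 10.6, 11.1 and 12.5 with both. The combination was above both single treatments, which overlapped each other. The interaction was −1.41 ± 0.31 (SE, edgeR adjusted p = 0.65), with an expectation of 30.2 CPM from the product and 13.5 CPM from the sum.

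CDKN1A was at 142, 130 and 142 CPM in untreated cells, 196, 192 and 188 with E1A, 2154, 1779 and 1745 with oxaliplatin and 1644, 1256 and 1231 with both. The combination lay below oxaliplatin alone in every pairing of their samples, and it exceeded the untreated and E1A levels many times over. Oxaliplatin raised CDKN1A by 3.78 ± 0.16 on the log2 scale without E1A and by 2.84 in its presence (edgeR adjusted p = 7.7e-10 and 3.8e-08). The E1A effect was 0.48 ± 0.15 alone (adjusted p = 0.32) and −0.46 under oxaliplatin (adjusted p = 0.95). The interaction, −0.94 ± 0.21 (SE), had an adjusted p of 0.65 by edgeR and of 0.0497 by DESeq2, and it was −1.16 without the 2 libraries. The measured mean of 1377 ± 232 CPM (SD, n = 3) lay below the sum of the increases, 1947 CPM, by 570 ± 187 CPM (SE).

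EGR1, a zinc finger immediate early factor, is a contrast, chosen after its values were seen. It was at 126, 110 and 123 CPM in untreated cells, 470, 473 and 382 with E1A, 56.4, 59.1 and 68.8 with oxaliplatin and 192, 187 and 204 with both. No group overlapped another. E1A raised EGR1 by 1.88 on the log2 scale in untreated cells and by 1.66 under oxaliplatin (edgeR adjusted p = 1.09e-06 and 1.35e-05), while with oxaliplatin alone it fell by 0.96 (adjusted p = 0.000152). The interaction was −0.22 with a 95% interval from −0.63 to 0.19. On the linear scale the mean of the combination was below the sum of the single differences, with a departure of −189 ± 31 CPM (SE), so the 2 scales rank EGR1 and JUNB in opposite order. HSPA1B, with an interaction of −0.34 ± 0.21, and BRD2, with −0.25 ± 0.18, were raised by E1A under oxaliplatin by 1.43 and 0.98, beside 1.77 and 1.23 in untreated cells.

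**Figure D2:**
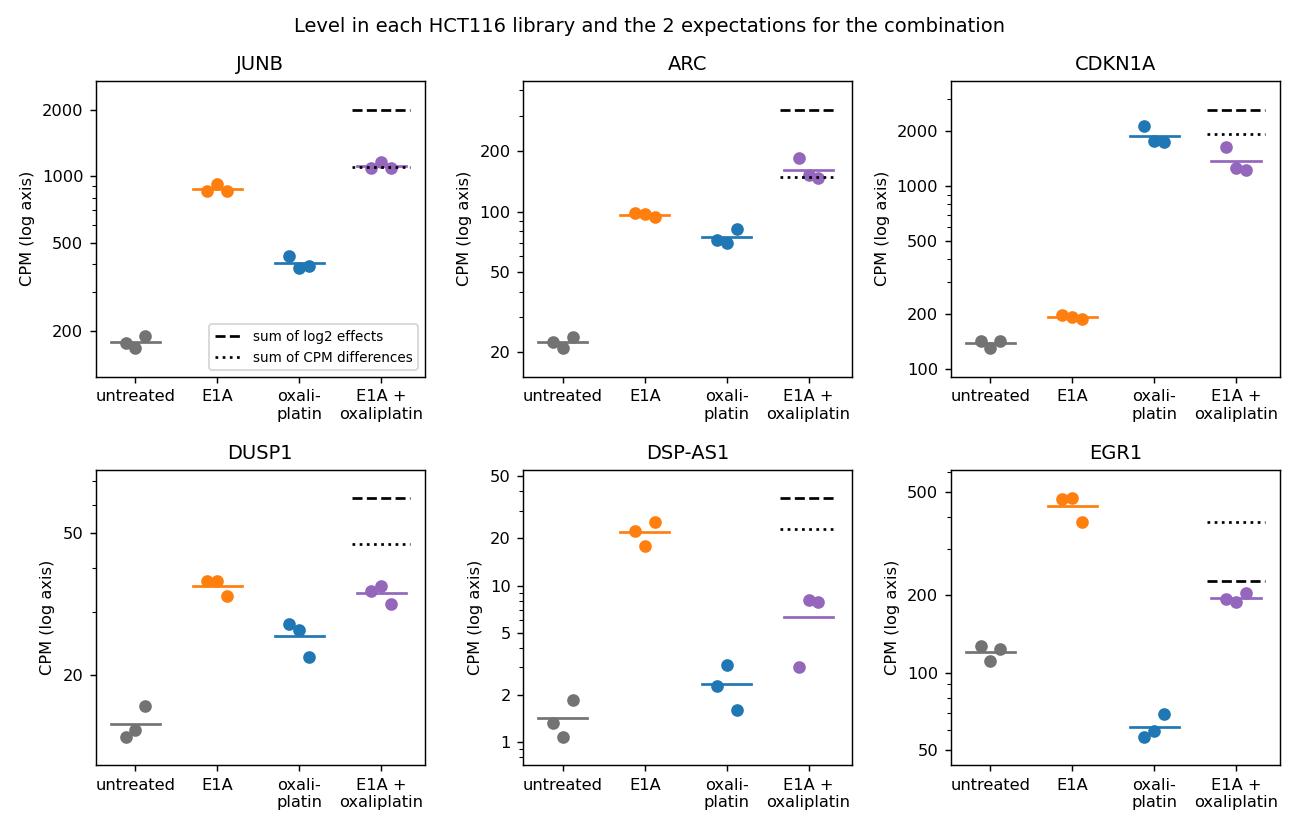
The level of JUNB, ARC, CDKN1A, DUSP1, DSP-AS1 and EGR1 in each of the 12 libraries, in CPM on log axes, with a solid line at each group mean. The dashed line is the product of the 2 fold changes and the dotted line the sum of the 2 increases in CPM, and the combination of JUNB (mean 1117 CPM) lies at the dotted line (1106 CPM) and below the dashed one (2005 CPM).

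Larger negative estimates came from genes at low levels, named here after their values were seen. DSP-AS1, an antisense RNA of the desmoplakin locus, was at 1.32, 1.08 and 1.85 CPM in untreated cells, 22.3, 17.9 and 25.7 with E1A, 2.28, 3.13 and 1.60 with oxaliplatin and 3.03, 8.13 and 7.82 with both. Its E1A values stood above all others, and in the combination the lowest value was 3.03 CPM in replicate 1. The interaction was −2.51 ± 0.49 (SE, edgeR adjusted p = 0.28) and −2.42 without the 2 libraries. Counting by strand was not stated, so reads of DSP-AS1 and of the gene on the other strand may not be separated.

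RENO1, a noncoding RNA gene, was at 4.59, 4.95 and 5.54 CPM in untreated cells, 23.1, 20.5 and 26.0 with E1A, 7.63, 7.16 and 7.19 with oxaliplatin and 14.2, 10.4 and 9.15 with both. The combination lay between oxaliplatin and E1A with no overlap. Its interaction was −1.59 ± 0.29 (SE, edgeR adjusted p = 0.25). PADI3, which converts arginine to citrulline in proteins, was at 0.840, 0.858 and 1.03, 3.24, 2.34 and 2.47, 4.30, 3.96 and 3.74, and 3.60, 3.03 and 2.97 CPM in the same order, with an interaction of −1.88 ± 0.34 (adjusted p = 0.25). Every combination sample of PADI3 lay below every oxaliplatin sample and 2 of the 3 lay among the E1A samples.

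A set of E1A-responsive genes was chosen in samples that the HCT116 interaction does not use. In HCT116 oxpl-R, the oxaliplatin-resistant derivative that carries the same transgene, E1A raised 31 genes and lowered 0 at an adjusted p below 0.05 (edgeR), and 30 remain without the transgene. In HCT116 cells 28 of the 30 had a positive E1A effect, with a median of 1.73 on the log2 scale, and the median was 1.02 for E1A added to oxaliplatin. The transgene itself was at a mean of 741 CPM with E1A alone and 414 CPM in the combination. The part of this lower transgene level in the smaller median was not tested. The interaction was below 0 for 27 of the 30 (90%) with a median of −0.58, where 54.0% of all genes tested were below 0 and their median was −0.04. Of the 30, 9 had a negative and 1 a positive interaction at an unadjusted p below 0.05, where the shares over all genes tested were 1.93% and 2.76%, and none passed the adjusted test.

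Without the 2 libraries that stood apart, the median of these 30 genes was −0.62 with 27 below 0, with trends in GC content and transcript length removed it was −0.51 with 26 below 0, and with both changes it was −0.41. Among the most negative of them were DSP-AS1, CLIC5 (−2.35 ± 0.63), LINC00659 (−1.67 ± 0.43), RENO1 and CCN2, named after their values were seen. BRD2, EGR1, EGR3 (−0.24 ± 0.28) and NRARP (−0.13 ± 0.20) were nearer to 0. CASP9, the initiator caspase of the mitochondrial pathway, was positive at 0.31 ± 0.26, as was CDKN2A-AS1 at 1.19 ± 1.55. On the linear scale the combination of 21 genes lay below and that of 9 above the sum of the increases. For 23 of the 30 genes RefSeq held promoters, 31 in all, of which 25.8% had TATAAA, 32.3% TGACG, 38.7% CCAAT, 71% GGGCGG and 3.23% the CArG box in 250 bases, beside 10.7%, 21.2%, 32%, 42.6% and 1.16% of all promoters. GGAATG was in 6.45% of the 31 against 11.9% of all, the AP-1 element TGANTCA in 6.45% against 6.57%, the full cAMP response element TGACGTCA in 0% against 1.65% and the heat shock element core GAANNTTC in 3.23% against 5.78%. These shares are a description with no test.

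**Figure D3:**
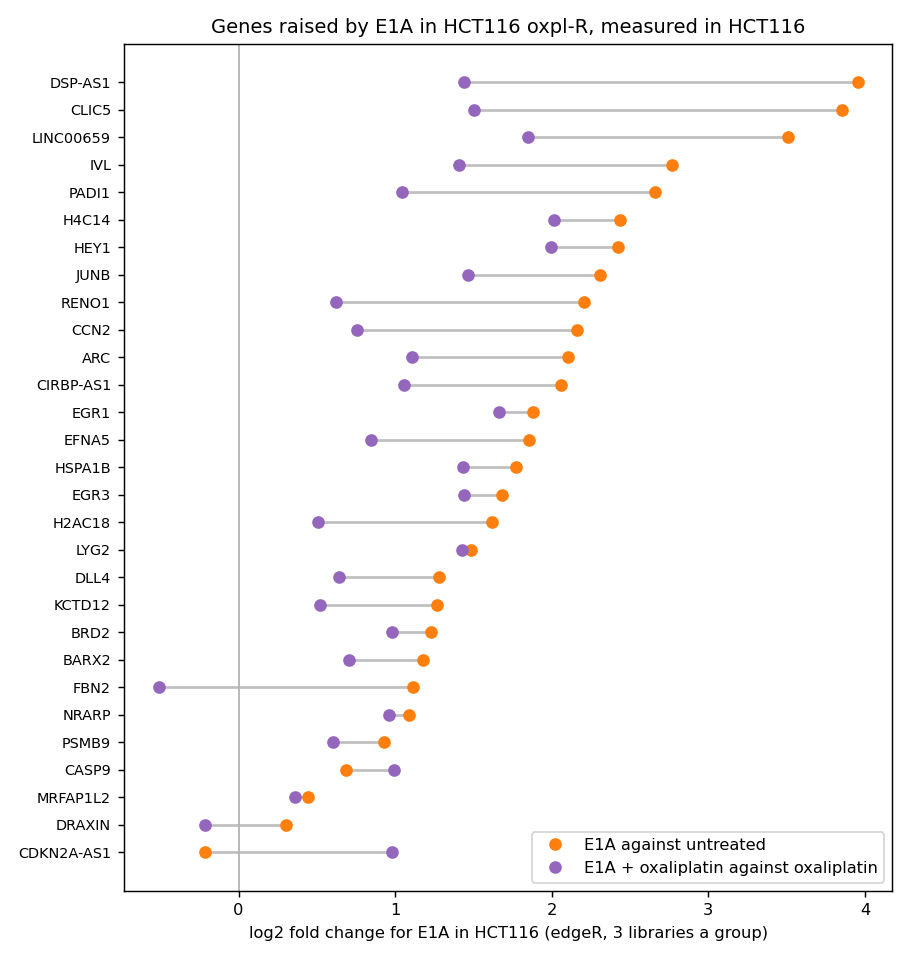
The log2 fold change for E1A in HCT116 cells without oxaliplatin (orange) and with it (purple) for 29 of the 30 genes that E1A raised in HCT116 oxpl-R cells, ordered by the first. NSUN5P1 is not drawn because its counts were 0 in every E1A and every oxaliplatin library. A purple point to the left of the orange one is a negative interaction, as in DSP-AS1 (3.95 and 1.44) and JUNB (2.31 and 1.47).

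Genes that oxaliplatin raised in HCT116 oxpl-R cells were followed in the same way. Of 485 such genes 484 were tested in the 12 HCT116 samples, and their median oxaliplatin effect was 0.95 without and 0.70 with E1A. The interaction was below 0 for 380 (78.5%) with a median of −0.23, of which 37 had an unadjusted p below 0.05 against 5 of the positive ones (1.93% and 2.76% of all genes tested). The median was −0.35 without the 2 libraries and −0.13 with the GC and length trends removed. The 451 genes that oxaliplatin lowered in HCT116 oxpl-R cells had 224 below 0 and a median of 0.00. Of these, 21 were positive and 6 negative at an unadjusted p below 0.05, beside 2.76% and 1.93% of all genes tested. Their median oxaliplatin effect was −0.51 without and −0.38 with E1A.

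The gene lists were examined next, and in none of the 21 did a member pass the adjusted test of the interaction in the 12 libraries (edgeR). The 30 tested p53 targets had a median interaction of −0.09, while their median oxaliplatin effect was 1.03 without and 1.11 with E1A. Oxaliplatin alone raised 20 of them and lowered 1, beside 2253 raised and 1625 lowered of all 17632 genes tested. CDKN1A and CYFIP2 (−0.61 ± 0.22) were negative and KITLG (1.03 ± 0.44) positive at an unadjusted p below 0.05. GDF15, a p53-responsive cytokine, was at 512, 471 and 433 CPM with oxaliplatin and 406, 299 and 276 CPM with both, without overlap, and its interaction was −0.45 ± 0.23 (adjusted p = 0.96). MDM2, the ubiquitin ligase of p53, had −0.10 ± 0.25. Without the 2 libraries the list median was −0.13, with 8 members called higher and 9 lower (10% and 3.52% of all genes). With trends removed as well it was −0.15, with 2 called higher and 10 lower (4.77% and 5.36% of all genes).

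The 16 targets of SRF and YAP had the lowest median, −0.30, with 15 of 16 below 0. Oxaliplatin alone raised 10 of them, beside 2253 of all 17632 genes tested. ACTA2, smooth muscle actin, was at 12.3, 12.8 and 15.1 CPM with oxaliplatin and 14.9, 9.34 and 9.94 with both, and its interaction was −1.09 ± 0.34. The regulatory light chain gene MYL9 had −0.60 ± 0.24. The median was −0.50 without the 2 libraries, with 9 members called lower (3.52% of all genes), and −0.32 with trends removed as well, with 7 called lower (5.36% of all genes). The 29 AP-1 and immediate early genes had a median of −0.18. Of these, 2 (JUNB and DUSP1) were negative and 0 positive at an unadjusted p below 0.05, beside 1.93% and 2.76% of all genes tested. E1A alone raised 7, beside 59 of all 17632 genes tested. The list median was −0.28 without the 2 libraries, −0.02 with trends removed in all 12 and −0.05 with both changes. With both changes 4 members were called lower and 1 higher, beside 5.36% and 4.77% of all genes. GADD45B of the same list had 0.55 ± 0.28, opposite in sign to JUNB.

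The 38 tested G2 and M phase genes had a median of 0.04 and the 52 E2F target and replication genes −0.01. At an unadjusted p below 0.05, 2 of the G2 and M phase and 7 of the E2F target and replication genes were positive and none was negative, where 2.76% of all genes tested were positive and 1.93% negative. Oxaliplatin alone lowered 18 and 22 of them and raised 0 and 3, beside 1625 lowered and 2253 raised of all 17632 genes tested. The effect of E1A alone was called for 0 members of either list, with medians of −0.04 and 0.10. CCNB1, the cyclin of mitotic entry, was at 276, 274 and 203 CPM in untreated cells, 156, 135 and 195 with E1A, 83.9, 117 and 87.4 with oxaliplatin and 52.8, 156 and 167 with both. Its low value in the combination came from replicate 1, one of the libraries that stood apart, and its interaction was 1.01 ± 0.42 with all libraries and 1.30 without the 2. CCNA2 (0.90 ± 0.41), ORC6 of the origin recognition complex (0.94 ± 0.34) and the clamp loader subunit RFC3 (1.22 ± 0.49) had positive estimates of like size. E2F1, which RB proteins restrain, had −0.26 ± 0.20. The 23 Fanconi anemia and homologous recombination genes had a median of 0.05, with RAD51AP1 at 1.26 ± 0.50.

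Of 30 ribosome biogenesis genes 7 were positive and 0 negative at an unadjusted p below 0.05, and of 76 cytosolic ribosomal protein genes 4 were positive, of 21 cholesterol synthesis genes 4 and of 17 heat shock genes 2, beside 2.76% of all genes tested. The ribosome biogenesis genes included LYAR (0.88 ± 0.26) and the nucleolar chaperone NPM1 (1.44 ± 0.51). NPM1 was at 1926, 1684 and 1331 CPM in untreated cells, 823, 699 and 1161 with E1A, 450, 628 and 564 with oxaliplatin and 264, 954 and 1203 with both. Its values in the combination spanned those of both single treatments, with replicate 1 the lowest of all 12. The constitutive HSP70 gene HSPA8 (1.12 ± 0.45), the stress factor DDIT3 (1.42 ± 0.56), RPL14 of the large ribosomal subunit (1.00 ± 0.35), FDFT1 of cholesterol synthesis (0.72 ± 0.24) and the hypoxia-inducible kinase PDK1 (1.14 ± 0.45) had the same sign.

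The remaining lists had medians between −0.22 and 0.34. The 19 tested host proteins bound by E1A had −0.10, with RB1 at 0.07 ± 0.25, EP300 at −0.11 ± 0.37, CREBBP at −0.15 ± 0.27 and HDAC2 at 0.58 ± 0.36. The BCL2 family and death receptor list had a median of 0.03. Interferon-stimulated genes had −0.16, with IRF7 at −0.76 ± 0.26 and EPSTI1 at 1.29 ± 0.51. At an unadjusted p below 0.05, 2 of the 38 tested were negative and 1 was positive, beside 1.93% and 2.76% of all genes. NF-kappaB targets had −0.09, with LIF at 0.47 ± 0.22. Replication-dependent histone genes, most of which lack poly(A) tails and are poorly captured where libraries select such tails, had −0.22, with H2AC18 at −1.11 ± 0.38. The MYC and MAX network had −0.19, with MYC at 0.05 ± 0.21. Medians were 0.01 for the integrated stress response, −0.04 for heat shock genes, 0.09 for ribosome biogenesis, 0.01 for cytosolic ribosomal proteins, −0.12 for the mitochondrial genome, 0.17 for cholesterol synthesis, 0.20 for hypoxia-inducible genes, −0.17 for epithelial markers and 0.34 for markers of other cell types. The last list is uncertain, since members such as PTPRC, CD3E, DCN and LUM had a median of 0 CPM. Its members ran from −3.51 to 2.62, and its median from −0.083 to 0.29 with a library left out.

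**Figure D4:**
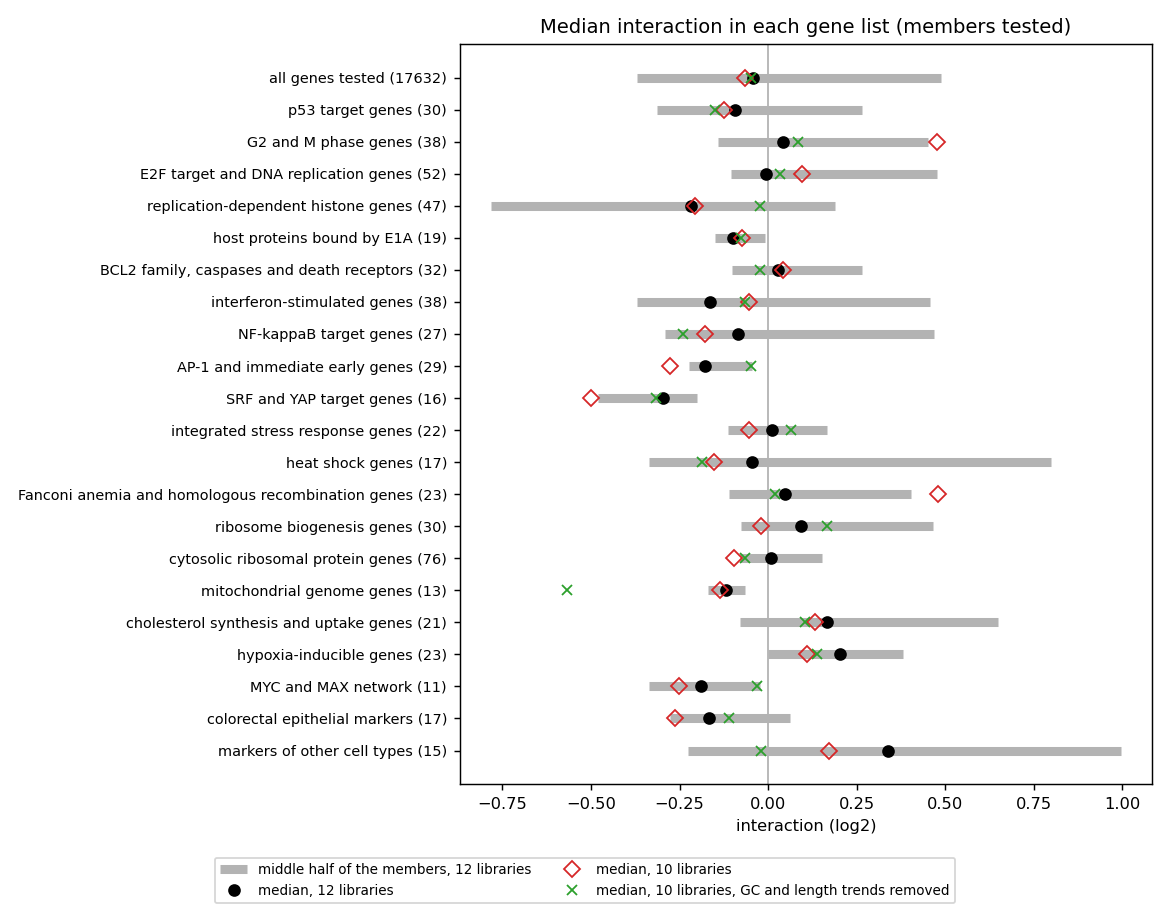
Median interaction (log2) in each gene list and over all genes tested, with the number of members tested in parentheses. Black points and gray bars are the median and the interquartile range of the members in 12 libraries, red diamonds the median without the 2 libraries that stood apart, and green crosses the same with GC and length trends removed. The G2 and M phase list moves from 0.04 to 0.48 and back to 0.08, and SRF and YAP targets are at −0.30, −0.50 and −0.32.

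The count of calls depended on the 2 libraries. Without them, edgeR called 1734 of 17341 genes higher (10%) and 611 lower (3.52%). The genes called higher had a median GC content of 41.3%, those called lower 60.2% and the others 50.9%. After removal of the GC and length trends 828 were called higher (4.77%) and 929 lower (5.36%). The oxaliplatin and combination groups then held 2 samples each, and edgeR's prior degrees of freedom became infinite, so every gene was given the spread of the common trend. Among the genes from SETP7 to TSC22D3, 422 of 3066 were called without the 2 libraries, 278 higher and 144 lower. Whether the libraries differ by handling or by the state of the cells was not tested.

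Named genes kept their sign in most of these settings. JUNB was at −0.88 and −0.49 without the 2 libraries, before and after the trends were removed (edgeR adjusted p = 4.9e-06 and 0.0032), and CDKN1A at −1.16 and −0.86 (4.2e-10 and 4.4e-09). CCNB1 was at 1.30 and 0.88 (2.0e-12 and 2.7e-09) and NPM1 at 1.86 and 1.12 (1.8e-24 and 2.5e-15). EGR1, at −0.15 and 0.13, did not pass in either. Among the lists, the G2 and M phase list went to a median of 0.48 with 18 of its members called higher and 1 lower, and then to 0.08 with 9 higher and 1 lower, and the Fanconi anemia and homologous recombination list went from 0.05 to 0.48 and then to 0.02. The 13 mitochondrial genes were not called in the first setting and were all called lower in the second, with a median of −0.57.

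The same contrast in HCT116 oxpl-R cells called 7 of 19452 genes (0.036%), all higher, in a fit of all 24 samples. These were the replication factors CDT1, MCM4 and MCM5, the histone chaperone ASF1B, the phosphatase CDC25A, the kinesin KIFC1 and E2F1. E2F1 was at 21.9 ± 2.33 CPM in oxaliplatin-treated oxpl-R cells and 101 ± 17.7 with both agents, against 120 ± 7.07 and 129 ± 16.4 CPM (SD, n = 3) in HCT116 cells. CDT1 was at 21 ± 5.32 and 74.2 ± 17.1 CPM in oxpl-R cells, against 176 ± 8.80 and 180 ± 23.6 CPM in HCT116 cells. Interactions of E2F1 and CDT1 were 1.66 and 1.67 in oxpl-R cells. In the 12 HCT116 samples they were −0.26 (95% interval −0.68 to 0.15) and −0.27 (−0.67 to 0.14).

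The difference of the interaction between the lines was itself tested, and 0 of 19452 genes (0%) passed, with 533 at an unadjusted p below 0.05. It was −1.94 ± 0.34 for E2F1 (SE, edgeR adjusted p = 0.052), −1.80 ± 0.35 for ASF1B (0.14), −1.95 ± 0.39 for CDT1 (0.15) and −1.52 ± 0.34 for MCM5 (0.40). These genes were chosen for their interaction in oxpl-R cells, which this difference contains. For MCM4, the HCT116 interaction of 0.34 (−0.07 to 0.75) had the same sign as in oxpl-R cells, and the difference was −0.98 ± 0.31 (adjusted p = 1.00).

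**Figure D5:**
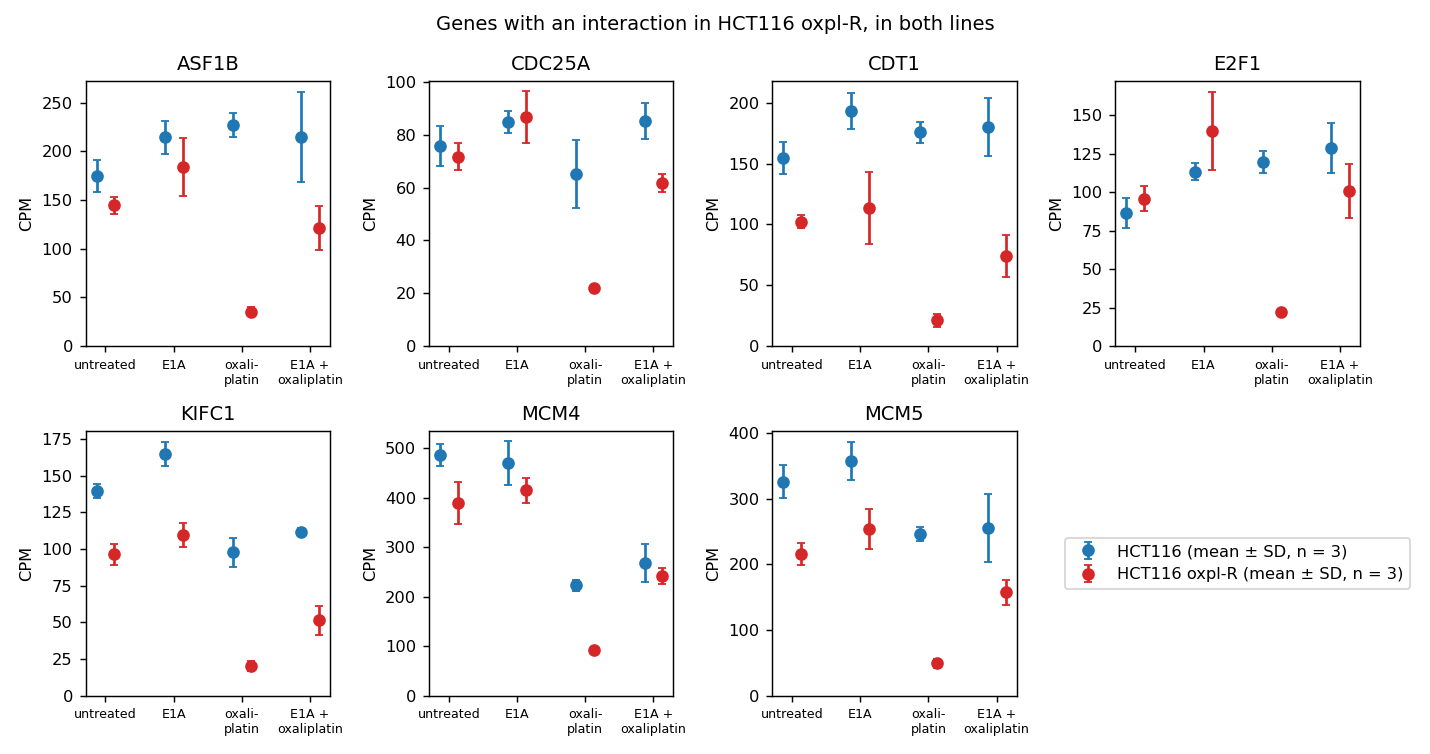
Mean CPM ± SD (n = 3) in the 4 groups of HCT116 (blue) and HCT116 oxpl-R cells (red) for the 7 genes with a called interaction in HCT116 oxpl-R cells. In the oxaliplatin group E2F1 is at 120 CPM in HCT116 and 21.9 CPM in HCT116 oxpl-R cells, and in the combination the 2 lines are at 129 and 101 CPM.

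Among the genes from SETP7 to TSC22D3, the smallest p belonged to SULF2, an extracellular sulfatase, named after its values were seen. SULF2 was at 6.08, 7.86 and 8.79 in untreated cells, 20.8, 18 and 16.3 with E1A, 28.4, 22.2 and 33 with oxaliplatin and 28, 20.1 and 20.4 with both, in CPM of the length-scaled table. Both single treatments raised it, by 1.28 and 1.88 on the log2 scale (edgeR adjusted p = 0.018 and 5.2e-05). The combination overlapped with each single treatment. Its interaction was −1.57 ± 0.31 (SE, adjusted p = 0.60) and −1.64 without the 2 libraries.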

How the data were processed

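RNA of 12 HCT116 TetOn-E1A samples was compared, with 12 HCT116 oxpl-R samples as an independent set. mRNA libraries were sequenced in paired ends. The authors trimmed reads with Trimmomatic, quantified them with Salmon 1.6.0 on GRCh38 with sequence and GC bias corrections, and deposited estimated counts per gene without normalization, here up to SETP6. A second deposited table is named as TPM, but its column sums fit length-scaled estimated counts, and it was read as such, so edgeR was used for it in place of limma. Estimated counts were rounded.

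Counts were fitted in R 4.3.3 with edgeR 4.0.16 (TMM, quasi-likelihood test, genes with a count in any sample, Benjamini-Hochberg adjustment over the table), with 95% intervals from the fit. DESeq2 1.42.0 was an alternative, and trends in GC content and transcript length (lowess) were removed in another. The code was tested on simulated data. Positions, GC content and length were looked up in an older GENCODE release of the same build. Promoters came from RefSeq (GRCh38.p14). Intervals and a floor of 3 counts cover counting error and replicate spread only.

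Members, lists and genes were chosen with earlier results of these data known. Named were the 12 genes a direction (4 among later genes) with the largest called interaction, of which there were none, the 4 of each list with the smallest p, and the anchors CDKN1A, MDM2, RB1, E2F1, EP300, CREBBP, CCNB1, MYC and GDF15. Some genes that this rule names are not reported here. Other genes are marked as chosen after their values were seen. No library was identical to another.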

Additional observations from a re-analysis of the deposited data

How the results depend on the processing

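In the 12 HCT116 libraries edgeR called 0 interactions, and 826 had an unadjusted p below 0.05. RLE normalization called 1 (NSUN5P1, also beyond 1 on the log2 scale), DESeq2 14 (11 beyond 1), all 24 samples in 1 fit 2 (both beyond 1, DSP-AS1 and NSUN5P1), and a filter on low counts, limma on log2(value + 1) or log2(value + 0.1) of the second table, and removal of GC and length trends 0 each. Without both libraries that stood apart the calls were 2345 (1062 beyond 1), and 1757 (303) with trends also removed. Both alternatives with these libraries left out, and the trend removal, were chosen after seeing the data. With each library left out in turn, calls ranged from 0 to 527 (0 to 420 beyond 1). They numbered 527 without E1A + oxaliplatin replicate 1 and 9 without oxaliplatin replicate 3. Samples with the same replicate number did not deviate together in more than 1 of 6 pairs of groups. With 3 samples a group this cannot settle whether the numbers pair the samples. With a replicate block the interaction calls numbered 0.

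E1A effects numbered 241 with DESeq2, 32 with the replicate block, 1896 without both libraries, 1762 with trends also removed and 23 to 183 with a library left out. Oxaliplatin effects numbered 7081 without both libraries, 2212 with trends removed, 5850 with both changes and 2289 to 5482 with a library left out. E1A effects within oxaliplatin numbered 30 with DESeq2, 1969 without both libraries, 1857 with trends also removed and 13 to 130 with a library left out, and oxaliplatin effects within E1A 4864, 5199 and 765 to 3127 under the last 3 of these settings. Genes after SETP6 had 422 calls without both libraries and 0 to 51 with a library left out. The HCT116 oxpl-R interaction had 36 calls with DESeq2 and 3 to 18 with a library left out, and the difference between the lines 10 with DESeq2, 1 with the filter on low counts, 1 with the replicate block (E2F1 in both) and 0 to 5 with a library left out. The cause of these differences was not tested.

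The median interaction of E1A-responsive genes was −0.41 without both libraries and with trends removed, and −0.76 to −0.58 with a library left out. That of oxaliplatin-responsive genes was −0.35 without both libraries, −0.13 with trends removed and −0.33 to −0.18 with a library left out. Signs turned for MDM2 (0.16 without both libraries), MYC (−0.21, and −0.031 with trends also removed), RB1 (−0.40 with trends removed, −0.66 with both changes) and EGR1 (0.13 with both changes). With a library left out, the values ran from −0.076 to 0.22 for RB1, −0.27 to 0.14 for MDM2, −0.50 to 0.25 for EP300, −0.43 to 0.035 for CREBBP and −0.17 to 0.14 for MYC. Interactions of the named genes kept sign and side of the threshold in 670 combinations of gene and setting, passed the threshold in 93 and turned in 15.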

Other observations

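The 4 positive calls of DESeq2 were loci that share sequence or transcripts with other genes, named after their values were seen. NSUN5P1, a pseudogene of NSUN5, had 83, 48 and 90 counts in untreated libraries, 0 in each E1A and each oxaliplatin library, and 42, 0 and 70 in the combination. No fold is given for it, since its fitted value rests on groups at 0. HNRNPA1L2, a retrocopy of HNRNPA1, had 94, 77 and 54 counts in untreated, 59, 44 and 49 in E1A, 11, 0 and 0 in oxaliplatin and 24, 60 and 39 in combination libraries. ATP6V1G2-DDX39B, a readthrough locus, had 105, 29 and 51, then 39, 70 and 51, then 3, 0 and 8, and then 58, 51 and 75 counts in the same order. AGAP13P had 5, 21 and 0 counts in untreated, 0 in all 6 single-treatment and 43, 14 and 3 in combination libraries. Estimated counts can be divided between such copies and their parent genes, so these 4 values are uncertain.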
